A study of Mus musculus with 2 samples.

Results

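The genes described here are 34 genes of cholesterol handling among the 32285 genes listed for aortic cells of mice with atherosclerosis. They were found in both count matrices by their symbols, with no filter on a measured value. The set and its lists were, however, chosen with earlier results of these data known. Of the 34 genes, 18 encode enzymes of sterol synthesis, 5 sterol sensors and SREBPs, 4 proteins of lysosomal release and transport, 2 enzymes of ester storage and hydrolysis, and 5 efflux transporters, LXR receptors and an LXR target. The study compared 2 single-cell libraries, 1 per group. The WT group was ApoE-/- mice on the C57BL/6 background, and the EC-iCD45KO group was a strain on that background whose endothelial cells (EC) lose CD45 when tamoxifen is given. Whether the WT mice received tamoxifen is not given in the sources used here. CD45, the product of Ptprc, is a phosphatase best known from leukocytes. ApoE was missing in both groups; it is an apolipoprotein by which cholesterol-rich particles are cleared from plasma. Mice of both groups ate a Western diet. No group with ApoE or on another diet was measured. The age, the sex, the number of animals pooled and the promoter that drove the deletion are likewise not given.

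Cells make cholesterol from acetyl-CoA through the mevalonate pathway, in which isoprenoid units are joined to squalene and squalene is closed and trimmed to the sterol. The transcription factor SREBP2, encoded by Srebf2, switches these enzymes on when the membrane of the endoplasmic reticulum is short of sterol, and the INSIG proteins hold it back when sterol is plentiful. Cholesterol taken up with lipoproteins is freed in the lysosome, carried out of it by NPC1 and NPC2, and either esterified for storage or exported by the ABC transporters ABCA1 and ABCG1. Oxysterols made from excess cholesterol activate the LXR receptors, which raise transcription of the transporters and of Mylip, whose product marks lipoprotein receptors for degradation. In the plaque, foam cells are macrophages loaded with cholesteryl ester, and export by these transporters is the main way they shed it.

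The libraries held 92058043 and 88967918 unique molecular identifiers (UMIs, 1 for each captured RNA molecule) over 39849 WT and 30278 EC-iCD45KO barcodes, of which 340 barcode sequences occurred in both. After filters on cells and doublets 35553 and 26064 cells remained. Clusters were called X-like from marker genes, none of them a gene of this set. The EC, smooth muscle cell (SMC), fibroblast and macrophage markers were all detected in their own classes, in both libraries. The libraries differed in makeup: macrophage-like cells were 10.4% of WT and 38.1% of EC-iCD45KO cells, and B-like cells were 16.4% and 1.30%. Markers of other cell types were detected in each of the 4 classes described most. In EC-like cells all 12 macrophage markers were detected, with a summed level of 4175 UMIs per 1000000 (CPM) in WT and 7089 CPM in EC-iCD45KO, next to 4076 and 4616 CPM of the 12 EC markers. Ptprc, the targeted gene, was at 298 CPM in WT and 116 CPM in EC-iCD45KO EC-like cells. The deletion is given for EC alone, but Ptprc was also lower in the EC-iCD45KO library in SMC-like (180 and 86.6 CPM), fibroblast-like (373 and 142 CPM) and macrophage-like cells (504 and 287 CPM). Ptprc was lower as well in T/NK-like (1119 and 893 CPM), dendritic-like (838 and 703 CPM) and chondrocyte-like cells (149 and 64.1 CPM). It was higher in the EC-iCD45KO library in B-like (752 and 1265 CPM) and neutrophil-like cells (932 and 1752 CPM). The 9 B cell markers were lower with it, at 2135 and 633 CPM in EC-like, 1239 and 325 CPM in SMC-like, 2310 and 377 CPM in fibroblast-like and 515 and 95.6 CPM in macrophage-like cells. Their part in the Ptprc values was not tested. With 1 library per group no test between groups was possible. Every interval below is an exact 95% interval for counting error only and does not hold the spread between animals.

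Promoters of the set were read to see what its members share. RefSeq promoter windows of GRCm38.p6, from 250 bases before to 50 bases after a gene's start, were found for 28 of the 34 genes. The box CCAAT, bound by NF-Y, a partner of SREBP2, was searched on both strands. A gene counted when any of its windows held it. It occurred in 14 of 15 synthesis genes with a window, the exception being Acat2, against 41.1% of all genes with a window. It occurred in 4 of 5 sterol sensing, 2 of 2 lysosomal, 2 of 2 ester and 1 of 4 efflux genes (Mylip), and in 23 of all 28. The GC box GGGCGG of Sp1 occurred in 14 of 15 synthesis, 5 of 5 sensing, 2 of 2 lysosomal, 1 of 2 ester and 2 of 4 efflux genes. That was 24 of the 28, against 38.2% of all genes. The sterol regulatory element core TCACNCCAC occurred in 1 synthesis gene, Hmgcs1, and in 1.44% of all genes. The LXR repeat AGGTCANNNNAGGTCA occurred in no window of the 28 genes and in 0.0148% of all genes, and that says nothing of binding, because only these letters in these windows were searched. A match is a run of letters and not a measured site.

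The promoters of 4 genes are printed to show these runs beside the genes the results turn on. Nsdhl, Mvd and Abca1 had the largest ratios between the libraries in EC-like cells among the genes with a window and a mean of at least 5 CPM, and Hmgcs1 was added after its values were seen because it alone carries the sterol element core. The corresponding macrophage-like genes, Dhcr7, Nr1h3 and Srebf1, have more than 1 start each and are not printed. Each run is the 250 bases before the start, 5′ to 3′ on the gene's own strand, with the sterol element core and the CCAAT boxes on either strand (CCAAT or ATTGG) in capitals. Hmgcs1 holds the sterol element core 137 bases before the start and CCAAT boxes 237, 176 and 45 bases before it. Abca1 holds 2 GC boxes and no CCAAT box, so its run has no capitals. The windows are Hmgcs1 at chr13:119690101-119690350 (plus strand), Nsdhl at chrX:72918271-72918520 (plus strand), Mvd at chr8:122443423-122443672 (minus strand) and Abca1 at chr4:53159896-53160145 (minus strand), all GRCm38.p6.
Hmgcs1: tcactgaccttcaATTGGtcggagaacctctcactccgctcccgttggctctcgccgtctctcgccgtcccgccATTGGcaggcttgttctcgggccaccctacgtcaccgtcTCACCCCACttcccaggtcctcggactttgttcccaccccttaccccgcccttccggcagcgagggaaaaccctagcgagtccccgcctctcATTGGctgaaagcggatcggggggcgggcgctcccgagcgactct
Nsdhl: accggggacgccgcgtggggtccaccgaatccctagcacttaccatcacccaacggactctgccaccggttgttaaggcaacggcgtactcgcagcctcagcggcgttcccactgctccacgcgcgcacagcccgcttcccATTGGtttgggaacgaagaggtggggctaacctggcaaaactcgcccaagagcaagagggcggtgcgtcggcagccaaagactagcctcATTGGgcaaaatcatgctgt
Mvd: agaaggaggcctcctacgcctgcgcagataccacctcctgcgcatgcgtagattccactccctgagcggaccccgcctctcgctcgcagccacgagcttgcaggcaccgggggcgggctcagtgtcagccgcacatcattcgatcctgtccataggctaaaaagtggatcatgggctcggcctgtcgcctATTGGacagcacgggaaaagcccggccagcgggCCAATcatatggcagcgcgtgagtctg
Abca1: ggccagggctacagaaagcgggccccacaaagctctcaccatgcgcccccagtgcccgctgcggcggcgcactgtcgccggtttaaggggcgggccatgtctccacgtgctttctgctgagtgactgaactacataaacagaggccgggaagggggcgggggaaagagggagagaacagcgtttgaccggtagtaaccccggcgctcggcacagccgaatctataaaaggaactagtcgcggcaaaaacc

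The efflux, lysosomal and ester lists were highest in macrophage-like cells in both libraries, and synthesis was highest in dendritic-like cells. Orders of level were read over the 9 named classes with at least 500000 UMIs in both libraries. The summed level of the 18 synthesis genes was 440 CPM in WT and 402 CPM in EC-iCD45KO dendritic-like cells, antigen-presenting cells of the wall. The next class was macrophage-like in WT (275 CPM) and T/NK-like in EC-iCD45KO (276 CPM). EC-like cells stood at 218 and 217 CPM and SMC-like cells at 226 and 246 CPM. The efflux list was highest in macrophage-like cells (668 and 799 CPM) and lowest in T/NK-like cells (226 and 267 CPM). The lysosomal list stood at 1560 and 1498 CPM in macrophage-like cells, against 194 and 179 CPM in B-like cells. The ester list stood at 177 and 222 CPM in macrophage-like cells, against 31.9 and 41.7 CPM in chondrocyte-like cells. The highest class was the same in the 2 libraries for these 4 lists, while the class next to it differed for synthesis and for efflux, where it was EC-like in WT (537 CPM) and neutrophil-like in EC-iCD45KO (769 CPM).

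**Figure D1:**
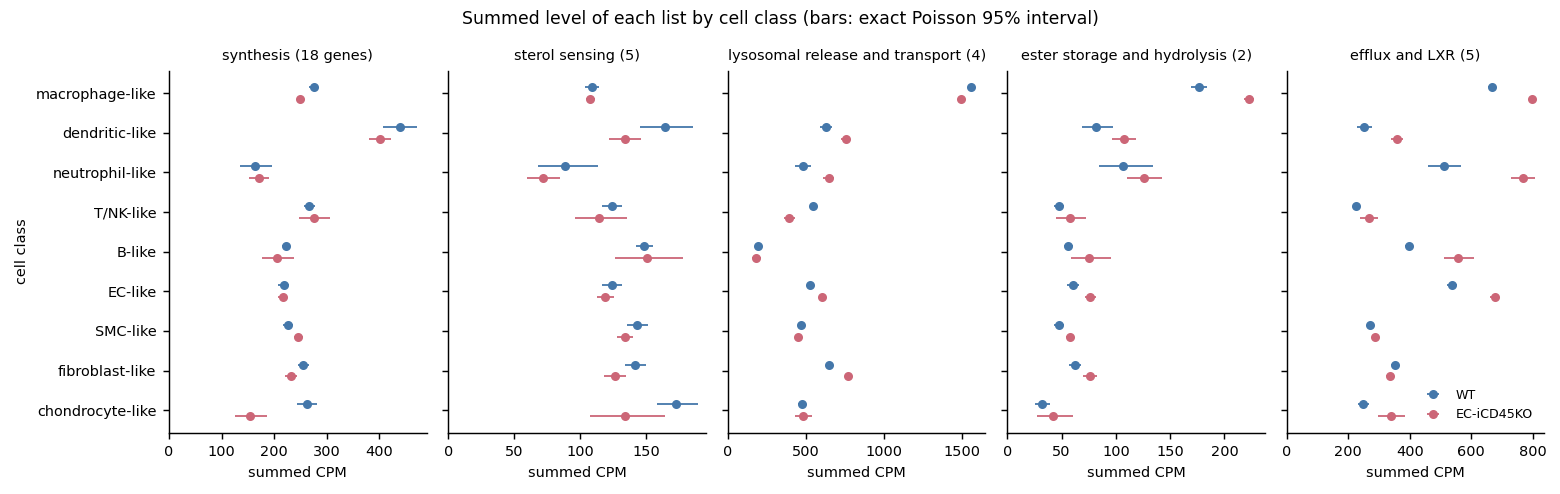
Summed level of the 5 gene lists (x axis, CPM) in the 9 classes with at least 500000 UMIs in both libraries (y axis); points are the single WT and EC-iCD45KO libraries and bars exact Poisson 95% intervals. Dendritic-like cells stand highest for synthesis (440 and 402 CPM) and macrophage-like cells for efflux (668 and 799 CPM).

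**Figure D2:**
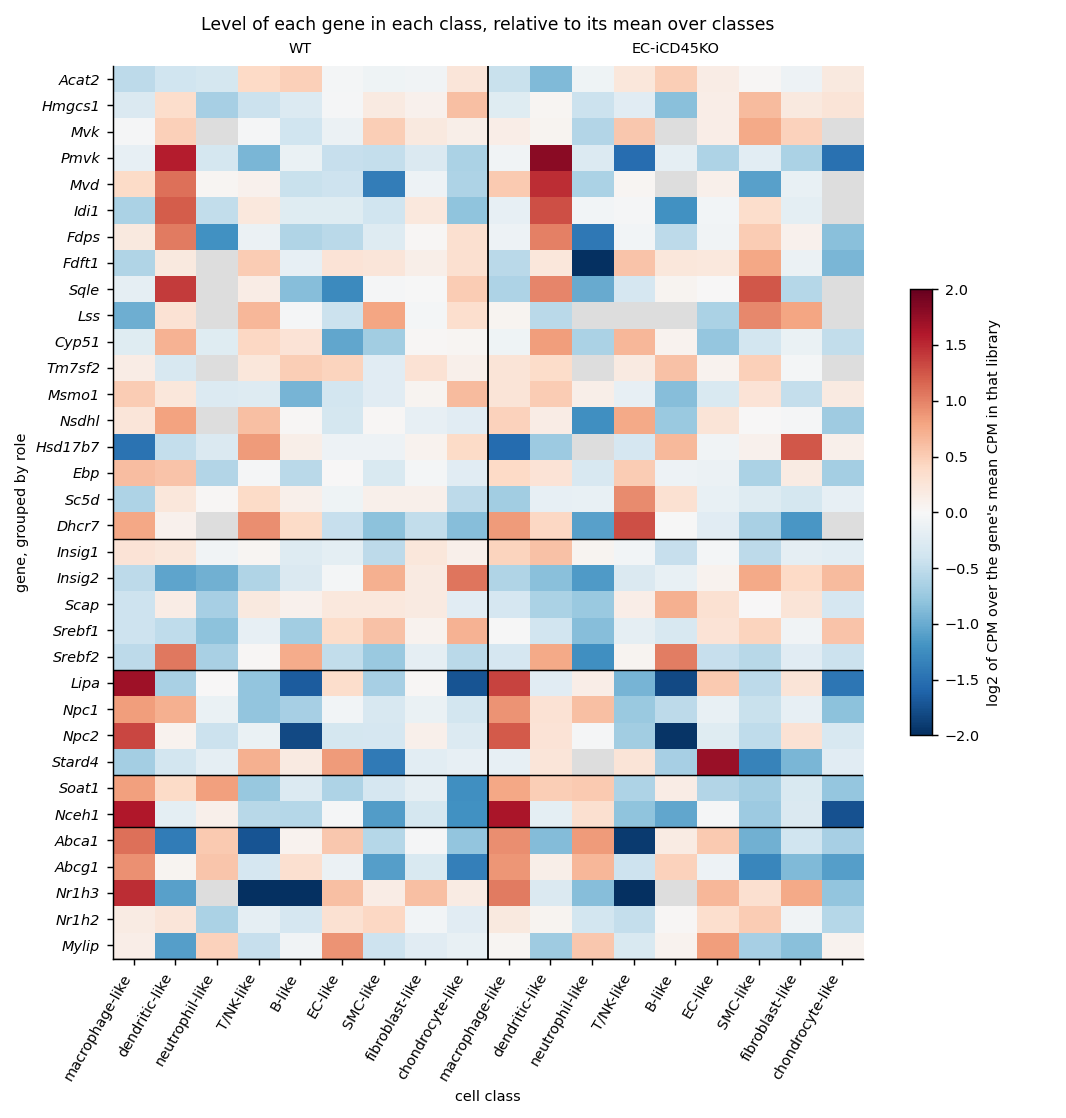
Level of each of the 34 genes (rows, grouped by role in the order synthesis, sensing, lysosome, ester, efflux) in each class of each library (columns), as the log2 of its CPM over its own mean CPM across the 9 classes of that library; grey cells hold fewer than 3 UMIs. Pmvk stands out in dendritic-like cells (102 and 116 CPM), Lipa in macrophage-like cells (194 and 165 CPM) and Stard4 in EC-like cells (20 and 23 CPM).

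Few of the 34 genes differed by a large fold between the libraries. A gene was called when its CPM differed by at least 1.5-fold, among genes whose mean over the 2 libraries reached 5 CPM. In EC-like cells 29 of the 34 passed that filter, and 1 was called higher in EC-iCD45KO and none lower, where 5.66% of all genes that passed were called higher and 7.29% lower. In SMC-like cells 28 passed, 3 were called higher and none lower, against 5.57% and 8.15% of all genes. In fibroblast-like cells 30 passed, 1 was called higher and 3 lower, against 7.78% and 13.6%. In the cluster led by Sfrp4 alone, 1 of the 2 that form this class, 2 were called higher and 6 lower of 30, against 6.27% and 12.1%, and in the cluster led by Dmp1 3 and 5 of 28, against 12% and 22.9%. The added calls of the Sfrp4 cluster were Nceh1, higher, and Fdft1, Sc5d and Insig1, lower. In macrophage-like cells 30 passed and none was called, against 2.26% and 4.19%. The class shares lie near the background or below it, except the share called higher in SMC-like cells, which rests on 3 genes. The share called lower in the Sfrp4 cluster lies above its background and rests on 6 genes. Lss and Tm7sf2 stayed below the filter in all 4 classes, at 0.793 to 4.39 CPM. Lss closes the sterol rings and Tm7sf2 reduces a ring double bond. The median log2 ratio (EC-iCD45KO over WT) of the genes that passed was 0.06 in EC-like, 0.01 in SMC-like, -0.11 in fibroblast-like and -0.05 in macrophage-like cells, against -0.01, -0.06, -0.05 and -0.04 over all genes.

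**Figure D3:**
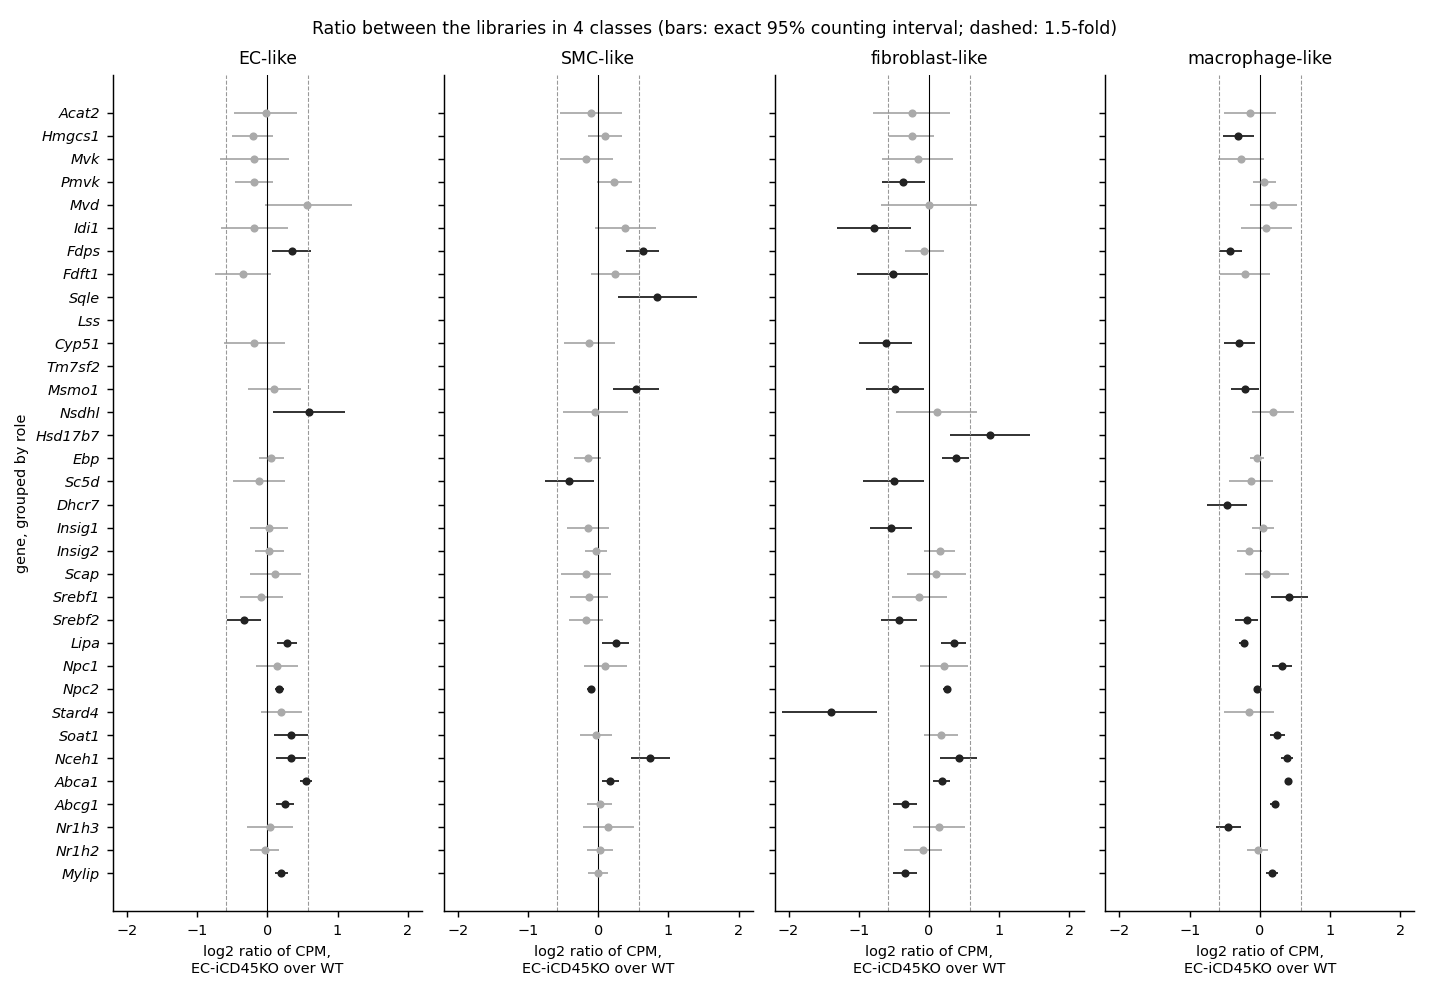
Log2 ratio of CPM, EC-iCD45KO over WT (x axis), for each gene with a mean of at least 5 CPM (rows, grouped by role) in 4 classes; bars are exact 95% counting intervals, black where they exclude 0, and dashed lines mark 1.5-fold. Abca1 lies right of 0 in all 4 panels (0.55, 0.17, 0.18 and 0.40), and Fdps lies on opposite sides in SMC-like (0.63) and macrophage-like cells (-0.42).

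Among the synthesis enzymes, Pmvk, Mvd, Idi1, Fdps and Cyp51 were highest in dendritic-like cells in both libraries. Pmvk, which adds the 2nd phosphate to mevalonate, stood at 102 CPM there in WT (86.6 to 118) and at 116 CPM (105 to 128) in the EC-iCD45KO library. In no other of the 9 classes did it pass 31.7 CPM. Idi1, the isomerase of the isoprenoid units, was at 22.9 and 18.6 CPM there, and the next class reached 11.4 CPM in WT and 9.73 CPM in EC-iCD45KO. Fdps, which makes farnesyl diphosphate, was at 60.1 and 53.8 CPM, and next came chondrocyte-like cells in WT (36.6 CPM) and SMC-like cells in EC-iCD45KO (37.9 CPM). Other enzymes had other orders. Ebp, a sterol isomerase, was highest in macrophage-like cells in WT (81.3 CPM) and in T/NK-like cells in EC-iCD45KO (84.7 CPM), and Sc5d, a sterol desaturase, was highest in T/NK-like cells in both (18 and 25.7 CPM). Acat2, the thiolase that supplies acetoacetyl-CoA, was highest in B-like cells (12.6 and 10.9 CPM). Cyp51, the sterol demethylase, was lowest of the 9 classes in EC-like cells in both libraries, at 9.72 and 8.55 CPM.

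In EC-like cells the synthesis genes summed to 218 CPM in WT and 217 CPM in EC-iCD45KO. Their log2 ratio was -0.01 (-0.10 to 0.08). Nsdhl, which acts in removing the C4 methyl groups of the sterol, was the 1 gene called there, with 5.85 CPM in WT (4.35 to 7.72) against 8.82 CPM (7.17 to 10.7). Its log2 ratio was 0.59 (0.09 to 1.11). In EC-like cells without a UMI of the macrophage markers the Nsdhl ratio was -0.93 (-4.21 to 1.39). The Mvd ratio over the class, 0.57 (-0.04 to 1.20), was about as large and its interval held 0. Fdps stood at 20 and 25.5 CPM, a log2 ratio of 0.35 (0.07 to 0.63). In venous EC-like cells Fdps was 21 CPM in WT and 42.5 CPM in EC-iCD45KO (1.01, 0.33 to 1.76), and in capillary EC-like cells it was 20.6 CPM in both. Across these subtypes the synthesis sum was higher in EC-iCD45KO in venous EC-like cells (205 and 261 CPM; 0.35, 0.12 to 0.58) and lower in capillary EC-like cells (218 and 201 CPM; -0.12, -0.23 to -0.01). The capillary EC-like cells, marked by Rbp7 and Gpihbp1, were 2954 WT and 3302 EC-iCD45KO cells, and the venous EC-like cells, marked by Ackr1 and Selp, were 251 and 837. In the venous EC-like cells macrophage markers also differed, at 2062 and 6962 CPM, and so did the fibroblast (1142 and 2943 CPM) and SMC markers (820 and 2925 CPM). Their part in these results was not tested. Sqle, Hsd17b7 and Dhcr7 passed the filter in other classes but not in EC-like cells.

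In SMC-like cells 2 synthesis genes, Fdps and Sqle, were called higher in EC-iCD45KO. Fdps was 24.5 CPM in WT and 37.9 CPM in EC-iCD45KO (0.63, 0.40 to 0.87), and Sqle, the squalene epoxidase, was 4.17 and 7.42 CPM (0.83, 0.28 to 1.41). Msmo1, a sterol C4 oxidase, was 13.2 and 19.1 CPM (0.53, 0.22 to 0.86) and fell short of 1.5-fold. Sc5d went the other way, at 14.8 and 11.1 CPM (-0.41, -0.76 to -0.07). The 18 genes summed to 226 and 246 CPM (0.13, 0.05 to 0.21). This class held 2 clusters of unlike depth, 1 with medians of 1151 and 1212 UMIs per cell and 1 with 7735 and 10342. In the deeper cluster, where macrophage markers stood at 792 and 1039 CPM, Fdps was 25.5 and 45.1 CPM (0.82, 0.55 to 1.10), and the synthesis sum was 228 and 258 CPM (0.18, 0.08 to 0.28). The SMC markers of the deeper cluster also differed, at 16367 and 30135 CPM, and its fibroblast markers stood at 14439 and 10695 CPM. Their part in the result was not tested. In the shallower cluster, with 5132 and 9668 CPM of macrophage markers, the Fdps ratio was 0.23 (-0.21 to 0.67) and the synthesis ratio 0.03 (-0.11 to 0.17). In the 378 WT and 163 EC-iCD45KO SMC-like cells without a UMI of the macrophage markers the signs turned, with intervals that held 0: Fdps was at -0.04 (-1.41 to 1.16), Sqle at -0.46 (-6.08 to 2.88) and the sum at -0.18 (-0.58 to 0.20).

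Fibroblast-like cells showed lower values for most synthesis genes that passed the filter in EC-iCD45KO. Of 14 such genes 10 lay below 0 and 4 above, with a median of -0.24 against -0.05 over all genes. Idi1 (11.4 and 6.64 CPM; -0.78, -1.32 to -0.25) and Cyp51 (20.4 and 13.3 CPM; -0.62, -1.0 to -0.25) were called lower. Pmvk (-0.36, -0.67 to -0.06), Fdft1, the squalene synthase (-0.52, -1.03 to -0.02), Msmo1 (-0.48, -0.90 to -0.07) and Sc5d (-0.51, -0.94 to -0.08) were lower by less than 1.5-fold. Hsd17b7, a sterol ketoreductase, was called higher, at 5.44 and 9.89 CPM (0.86, 0.30 to 1.44), and Ebp was higher by 0.38 (0.19 to 0.57). The sum was 256 and 233 CPM (-0.14, -0.23 to -0.04). Macrophage markers stood at 4934 and 6568 CPM in this class, B cell markers at 2310 and 377 CPM and the fibroblast markers at 14748 and 21998 CPM, and their part in these ratios was not tested. The class joined 2 clusters in unlike shares. The cluster led by Sfrp4 and Fbln1 held 2169 WT and 2388 EC-iCD45KO cells, and the cluster led by Dmp1 and Mmp13 held 2917 and 821. None of the 10 leading genes of either cluster was on the fibroblast list. That list summed to 22345 and 23898 CPM in the Sfrp4 cluster but 6996 and 11231 CPM in the Dmp1 cluster, against 14439 and 10695 CPM in the deeper SMC-like cluster, so the name is less certain for the Dmp1 cluster. Within the former, where macrophage markers stood at 4121 and 6294 CPM and B cell markers at 2111 and 388 CPM, the synthesis ratio was -0.29 (-0.40 to -0.17), with Idi1 at -1.01 (-1.65 to -0.38) and Cyp51 at -0.73 (-1.16 to -0.30). In the latter macrophage markers stood at 5764 and 8120 CPM and B cell markers at 2513 and 315 CPM. Its SMC markers also differed, at 2255 and 4012 CPM. The synthesis ratio there was -0.05 (-0.27 to 0.16), with Cyp51 at -1.34 (-2.71 to -0.22). The Hsd17b7 ratio was 0.63 (-0.02 to 1.31) and 0.01 (-2.04 to 1.66) within the 2 clusters, so neither interval excluded 0. Fdft1 lay at -1.17 (-1.76 to -0.58) in the Sfrp4 cluster and at 0.91 (-0.17 to 1.93) in the Dmp1 cluster. In fibroblast-like cells without a UMI of the macrophage markers the ratios were -0.16 (-2.19 to 1.46) for Cyp51, 0.05 (-2.43 to 1.97) for Msmo1 and -0.12 (-1.44 to 1.03) for Ebp, and Pmvk stood at 0.00 (-1.77 to 1.47). Fdft1 (-0.98, -4.15 to 1.13), Hsd17b7 (1.93, -4.37 to 8.22) and the sum (-0.45, -0.99 to 0.06) kept their side of 0. All of those intervals held 0, and those of the single genes are too wide to show a direction.

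Macrophage-like cells also had a lower synthesis sum in EC-iCD45KO, 275 and 250 CPM (-0.14, -0.20 to -0.09), with no gene past 1.5-fold. Fdps was 33.3 and 24.9 CPM (-0.42, -0.58 to -0.26), Hmgcs1, the synthase that makes HMG-CoA, 18.3 and 14.8 CPM (-0.31, -0.52 to -0.09), and Dhcr7, which makes cholesterol from its last precursor in one branch, 11 and 7.97 CPM (-0.47, -0.75 to -0.18). The intervals of Cyp51 and Msmo1 also lay below 0. B cell markers in these cells stood at 515 and 95.6 CPM and SMC markers at 108 and 249 CPM, and their part was not tested. Of the 3 macrophage-like subtypes, the synthesis sum differed most in foamy macrophage-like cells, named from Trem2, Gpnmb and Fabp5 among other markers, with 1419 WT and 2811 EC-iCD45KO cells. There the sum was 291 and 243 CPM (-0.26, -0.34 to -0.18), 12 of the 14 genes that passed lay below 0 with a median of -0.33 against -0.02 over all genes, and Fdps (43.7 and 28.1 CPM; -0.63, -0.86 to -0.41) was the 1 synthesis gene called. In resident macrophage-like cells, named from Mrc1, Ccl8 and others, the sum was 271 and 273 CPM (0.01, -0.11 to 0.12), and in monocyte-derived macrophage-like cells, named from Chil3 and other markers, 239 and 234 CPM (-0.03, -0.15 to 0.09). Mvk, the mevalonate kinase, Cyp51 and Acat2 were called lower in the latter, with an interval that held 0 for Acat2 but not for Mvk (-0.77, -1.50 to -0.02) or Cyp51 (-0.65, -1.13 to -0.16). In resident macrophage-like cells Nsdhl was called higher (0.91, 0.16 to 1.75) and Dhcr7 lower (-0.59, -1.14 to -0.03).

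Counts over all 34 genes in these subtypes stayed small. In foamy macrophage-like cells 29 passed the filter and 1 was called higher and 1 lower, against 3.87% and 3.96% of all genes. In resident macrophage-like cells 30 passed, 2 were called higher and 1 lower, against 4.47% and 7.15%. In monocyte-derived macrophage-like cells 29 passed, 1 was called higher and 4 lower, against 5.86% and 10.1%. These shares, too, lie near or below the background, or rest on 1 or 2 genes.

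The sum of the 5 sterol sensing genes stood close between the libraries in EC-like (124 and 119 CPM; -0.06, -0.18 to 0.05), SMC-like (143 and 134 CPM; -0.10, -0.20 to 0.01) and macrophage-like cells (109 and 108 CPM; -0.02, -0.10 to 0.07), and it was lower in EC-iCD45KO fibroblast-like cells (142 and 127 CPM; -0.16, -0.29 to -0.04). Srebf2 was highest in dendritic-like cells in WT (92.2 CPM) and in B-like cells in EC-iCD45KO (70 CPM). It was lower in EC-iCD45KO in all 9 classes, with an interval below 0 in 5 of them. In EC-like cells it was 31.5 and 25 CPM (-0.33, -0.58 to -0.09), in fibroblast-like cells 39.2 and 29.2 CPM (-0.42, -0.68 to -0.17) and in dendritic-like cells 92.2 and 58.3 CPM (-0.66, -0.97 to -0.35). In cells without a UMI of the macrophage markers the Srebf2 ratio was 0.07 (-0.84 to 0.92) in EC-like, -0.37 (-1.62 to 0.72) in SMC-like and 0.93 (-0.33 to 2.09) in fibroblast-like cells. The EC-like and fibroblast-like values lay on the other side of 0, and all 3 intervals held 0. The part of B cell RNA, whose markers were lower in these classes, was not tested. The 9 classes come from the same 2 libraries, so these values are not 9 replicates.

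Insig1 and Insig2, which encode the anchors that keep SREBP2 in the endoplasmic reticulum, had unlike orders over the classes. Insig2 was high in chondrocyte-like (80.6 and 56.6 CPM) and SMC-like cells (63 and 61.9 CPM) and low in dendritic-like cells (18.6 and 20.5 CPM). Insig1 was lowest in SMC-like cells (18.6 and 16.8 CPM). Insig2 was 37.5 and 38.3 CPM in EC-like cells (0.03, -0.18 to 0.24), but 1.17 (0.52 to 1.82) in those without a UMI of the macrophage markers. Insig1 differed between the libraries in fibroblast-like cells, at 30.9 and 21.3 CPM (-0.54, -0.84 to -0.24). Srebf1, whose SREBP1c form drives fatty acid synthesis and is itself an LXR target, was called higher in foamy macrophage-like cells, at 11.7 and 18.9 CPM (0.70, 0.32 to 1.09), and lay at 11.2 and 14.9 CPM over all macrophage-like cells (0.42, 0.16 to 0.68). Its interval held 0 in EC-like, SMC-like and fibroblast-like cells. Scap, the escort of the SREBPs, had an interval that held 0 in all 4 classes, with 8.37 to 13.9 CPM.

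Lipa, Npc1 and Npc2, the genes of lysosomal release, were highest in macrophage-like cells in both libraries. Lipa, the acid lipase that hydrolyses cholesteryl ester in the lysosome, was 194 and 165 CPM in macrophage-like cells (-0.23, -0.30 to -0.17), and EC-like cells came next (76.5 and 92.8 CPM; 0.28, 0.14 to 0.42). Npc1, which moves cholesterol through the lysosomal membrane, was 35.6 and 44.2 CPM in macrophage-like cells (0.31, 0.17 to 0.46). Npc2, the soluble carrier that hands cholesterol to NPC1, was 1324 and 1283 CPM there (-0.05, -0.07 to -0.02). The subtypes differed in side. Lipa was lower in foamy (-0.26, -0.34 to -0.18) and resident (-0.18, -0.35 to -0.01) but higher in monocyte-derived macrophage-like cells, at 76 and 101 CPM (0.41, 0.21 to 0.62). Npc2 was higher in foamy (0.09, 0.05 to 0.13) and resident (0.10, 0.04 to 0.16) and lower in monocyte-derived cells (-0.33, -0.37 to -0.28). In the macrophage-like cluster without a subtype (697 WT and 3681 EC-iCD45KO cells) it was -0.03 (-0.11 to 0.05). Of the 3 subtypes, the class value for Npc2 had the side of the monocyte-derived cells alone. In EC-like cells Npc2 was 412 and 464 CPM (0.17, 0.11 to 0.23). In the deeper of the capillary EC-like clusters, with 1249 and 1335 CPM of macrophage markers, Npc2 was 282 and 229 CPM (-0.30, -0.45 to -0.15), and in EC-like cells without any UMI of the macrophage markers its ratio was -0.31 (-0.61 to -0.01). Lipa kept its direction in that cluster, at 94.8 and 114 CPM (0.27, 0.03 to 0.52). In SMC-like cells Lipa was 37.9 and 45 CPM (0.25, 0.06 to 0.44) and Npc2 413 and 385 CPM (-0.10, -0.16 to -0.04), and in the deeper SMC-like cluster both lay below 0, with -0.25 (-0.53 to 0.02) for Lipa and -0.36 (-0.44 to -0.28) for Npc2. In fibroblast-like cells both were higher, by 0.35 (0.17 to 0.53) for Lipa and 0.26 (0.20 to 0.32) for Npc2, with macrophage markers at 4934 and 6568 CPM. Within the Sfrp4 cluster the ratios were 0.25 (0.03 to 0.47) and 0.18 (0.11 to 0.25). Without macrophage-marker UMIs the Lipa ratio was -0.62 (-2.16 to 0.65) in fibroblast-like and -1.26 (-2.97 to 0.09) in SMC-like cells, and the Npc2 ratio in fibroblast-like cells was 0.14 (-0.20 to 0.47).

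Stard4, a carrier that brings cholesterol to the endoplasmic reticulum, differed from the other transport genes in being highest in EC-like cells in both libraries, with 20 CPM (17.1 to 23.3) and 23 CPM (20.3 to 26). T/NK-like cells came next, at 18.2 and 8.30 CPM. Within EC-like cells it was 11.4 and 11.7 CPM in arterial, 20.8 and 27.3 CPM in capillary and 33 and 17.2 CPM in venous EC-like cells. The venous ratio was -0.94 (-1.62 to -0.25), in cells whose EC markers were also lower in EC-iCD45KO (5577 and 4304 CPM), and the capillary ratio was 0.39 (0.05 to 0.74). In fibroblast-like cells Stard4 was called lower, at 9.65 and 3.67 CPM (-1.39, -2.09 to -0.74), the largest ratio among the genes that passed in the 4 classes, and it was -1.59 (-2.38 to -0.84) within the Sfrp4 cluster. In fibroblast-like cells without a UMI of the macrophage markers it turned to 0.61 (-2.79 to 3.22).

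The sum of the 2 ester genes was higher in EC-iCD45KO in all 9 classes, with an interval above 0 in 6. These classes share the same 2 libraries and are not replicates. Soat1 encodes the enzyme that esterifies cholesterol and Nceh1 a neutral hydrolase of the esters. In macrophage-like cells Soat1 was 69.2 and 82.3 CPM (0.25, 0.14 to 0.35) and Nceh1 107 and 140 CPM (0.39, 0.30 to 0.47). Nceh1 was higher in each subtype, with 125 and 167 CPM in foamy (0.41, 0.30 to 0.53), 89.6 and 127 CPM in resident (0.51, 0.31 to 0.70) and 96.8 and 126 CPM in monocyte-derived macrophage-like cells (0.38, 0.20 to 0.57). In SMC-like cells Nceh1 was called higher, at 16.4 and 27.3 CPM (0.74, 0.46 to 1.02). That value came from the shallower cluster (29.5 and 53.7 CPM; 0.86, 0.51 to 1.23), and in the deeper one it was 9.96 and 11.2 CPM (0.17, -0.31 to 0.66). Without macrophage-marker UMIs it was -0.63 (-3.88 to 1.65). In EC-like cells the ratios were 0.34 (0.09 to 0.59) for Soat1 and 0.34 (0.13 to 0.55) for Nceh1. In the deeper capillary cluster they were -0.11 (-0.78 to 0.58) and -0.21 (-0.77 to 0.36).

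Abca1, the transporter that loads cholesterol onto apolipoprotein A-I, was higher in EC-iCD45KO in all 9 classes, with an interval above 0 in 8. T/NK-like cells were the exception, at 42.4 and 54.8 CPM (0.37, -0.03 to 0.75). All 9 values come from the same 2 libraries and are not replicates. In macrophage-like cells Abca1 was 300 and 396 CPM (0.40, 0.35 to 0.45). In EC-like cells it stood at 203 CPM in WT (193 to 212) against 297 CPM (287 to 308). The log2 ratio was 0.55 (0.47 to 0.64). That lies just under 1.5-fold, so it was not called. In the deeper capillary cluster, where macrophage markers stood at 1249 and 1335 CPM, Abca1 was 207 and 294 CPM (0.50, 0.34 to 0.67). In the 609 WT and 271 EC-iCD45KO EC-like cells without a UMI of the macrophage markers the ratio was 0.44 (0.15 to 0.74). By subtype Abca1 was 158 and 200 CPM in arterial, 203 and 310 CPM in capillary and 291 and 316 CPM in venous EC-like cells, and the venous interval held 0 (0.12, -0.08 to 0.32).

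In SMC-like cells the clusters differed in direction. Over the class Abca1 was 94.7 and 107 CPM (0.17, 0.05 to 0.30). The shallower cluster had 121 and 182 CPM (0.60, 0.42 to 0.78), and the deeper cluster had 82.2 and 60.9 CPM (-0.43, -0.61 to -0.25). The 2 clusters of 1 class therefore lay on opposite sides, the shallower with 5132 and 9668 CPM of macrophage markers and the deeper with 792 and 1039 CPM. In fibroblast-like cells Abca1 was 138 and 157 CPM (0.18, 0.06 to 0.30), with 0.28 and 0.27 within the 2 clusters.

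Abcg1, which exports cholesterol to mature HDL, had unlike levels in the macrophage subtypes. In foamy macrophage-like cells it was 262 and 302 CPM, in monocyte-derived 182 and 203 CPM and in resident macrophage-like cells 78.6 and 129 CPM. Foamy over resident its log2 ratio was 1.74 (1.54 to 1.94) within the WT library. Within the EC-iCD45KO library it was 1.23 (1.14 to 1.32). Abca1 did not follow it, with 310 against 290 CPM in WT and 383 against 360 CPM in EC-iCD45KO. Between the libraries Abcg1 was called higher in resident macrophage-like cells (0.71, 0.51 to 0.92), while the foamy ratio was 0.21 (0.13 to 0.29). In EC-like cells Abcg1 was 95.7 and 114 CPM (0.25, 0.12 to 0.38), with 0.79 (0.27 to 1.30) in those without macrophage-marker UMIs, and in fibroblast-like cells 83.7 and 66.1 CPM (-0.34, -0.51 to -0.17). The ratio was -0.58 (-0.96 to -0.22) in the Dmp1 cluster and 0.01 (-0.22 to 0.24) in the Sfrp4 cluster.

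Of the LXR genes, Nr1h3, which encodes LXR alpha, was highest in macrophage-like cells (29 and 21.3 CPM; -0.45, -0.62 to -0.27) and lowest in B-like cells (0.832 and 2.19 CPM). In monocyte-derived macrophage-like cells Nr1h3 was called lower, at 58.8 and 29.7 CPM (-0.98, -1.26 to -0.70), while Abca1 was called higher in the same cells, at 296 and 463 CPM (0.64, 0.54 to 0.75). In foamy macrophage-like cells Nr1h3 was 19.6 and 20.4 CPM. Nr1h2, for LXR beta, had an interval that held 0 in all 4 classes, with 29.5 to 44 CPM.

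Mylip, an LXR target that tags lipoprotein receptors for degradation, was highest of the 9 classes in EC-like cells in both libraries, with 183 CPM (174 to 192) and 210 CPM (202 to 219). It was higher in EC-iCD45KO by 0.20 (0.11 to 0.29) there. Arterial EC-like cells held 91.7 and 93.9 CPM, and capillary EC-like cells 202 and 249 CPM (0.30, 0.19 to 0.41). In venous EC-like cells Mylip was 262 CPM in WT and 168 CPM in EC-iCD45KO (-0.64, -0.87 to -0.42), so the capillary and venous ratios lay on opposite sides of 0. With every EC-like cluster given the same weight the EC-like ratio was -0.02, and in EC-like cells without macrophage-marker UMIs it was 0.43 (0.15 to 0.70). Stard4 likewise had its lowest level in arterial EC-like cells and capillary and venous ratios on opposite sides of 0. In the venous EC-like cells the EC markers stood at 5577 and 4304 CPM, the SMC markers at 820 and 2925 CPM, the fibroblast markers at 1142 and 2943 CPM and the macrophage markers at 2062 and 6962 CPM, and their part in the Mylip and Stard4 ratios was not tested.

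**Figure D4:**
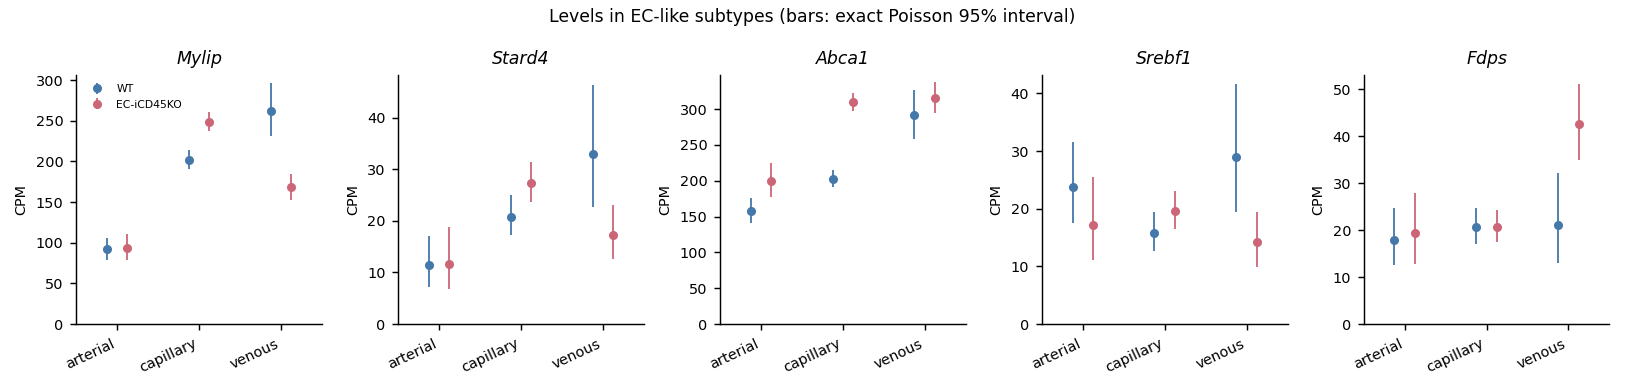
Level (y axis, CPM) of 5 genes in arterial, capillary and venous EC-like cells of the WT and EC-iCD45KO libraries; points are single libraries and bars exact Poisson 95% intervals. Mylip, Stard4 and Srebf1 are lower in EC-iCD45KO in venous cells (Mylip 262 and 168 CPM), and Abca1 is higher in capillary cells (203 and 310 CPM).

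Foamy and resident macrophage-like cells differed in the same direction in both libraries for Abcg1, Lipa, Insig1, Stard4, Cyp51 and Srebf2. Past 2-fold, 2 of the 30 genes that passed were higher in foamy cells and 2 lower in WT, against 4.75% and 9.84% of all genes, and 2 were higher and 3 lower in EC-iCD45KO, against 3.58% and 7.97%. Abcg1 and Lipa were the higher ones in each. Lipa was 303 against 126 CPM in WT (1.27, 1.11 to 1.43) and 253 against 111 CPM in EC-iCD45KO (1.19, 1.09 to 1.29). The lower ones included Insig1 and Cyp51, which SREBP2 switches on, and the carrier Stard4. Insig1 was 21.8 against 51 CPM in WT (-1.23, -1.57 to -0.89) and 19.3 against 50.3 CPM in EC-iCD45KO (-1.38, -1.60 to -1.16). Stard4 was 4.1 against 14 CPM (-1.77, -2.54 to -1.03) and 2.68 against 12 CPM (-2.17, -2.73 to -1.63). Cyp51 was 12.3 against 22 CPM in WT (-0.84, -1.33 to -0.34) and past 2-fold in EC-iCD45KO, 8.94 against 21.8 CPM (-1.29, -1.62 to -0.96). Srebf2 was 24.4 against 45.3 CPM (-0.89, -1.23 to -0.55) and 20.9 against 37.9 CPM (-0.86, -1.08 to -0.63). Insig2 went the other way, 32.6 against 20 CPM (0.71, 0.29 to 1.15) and 29.7 against 18.9 CPM (0.65, 0.40 to 0.91).

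As sums the lists put foamy above resident macrophage-like cells for efflux, by 0.54 (0.45 to 0.62) within WT and by 0.40 (0.36 to 0.45) within EC-iCD45KO, and for the ester genes, by 0.45 (0.29 to 0.61) and 0.36 (0.28 to 0.44). They put them below for sterol sensing, by -0.43 (-0.61 to -0.25) and -0.37 (-0.48 to -0.26). The synthesis sum gave 0.10 in the WT library (-0.02 to 0.22) and -0.16 in the EC-iCD45KO library (-0.24 to -0.09), and the lysosomal list was higher in foamy cells in both (0.38, 0.33 to 0.44, and 0.35, 0.32 to 0.39). Fdps was at 43.7 against 23.7 CPM in WT (0.88, 0.50 to 1.28) and at 28.1 against 28.4 CPM in EC-iCD45KO, and Nsdhl at 9.78 against 5.66 CPM and at 10.5 against 10.7 CPM. Over monocyte-derived macrophage-like cells the foamy sums gave 0.15 in WT and 0.07 in EC-iCD45KO for efflux, and 0.10 and 0.09 for the ester genes. They gave 0.02 and -0.06 for sterol sensing, -0.10 and 0.20 for the lysosomal list and 0.28 and 0.06 for synthesis. The efflux, ester and sensing gaps were thus smaller than those against resident cells. These subtypes were named by markers such as Trem2 and Mrc1, and no gene of the set entered the clustering or the names.

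**Figure D5:**
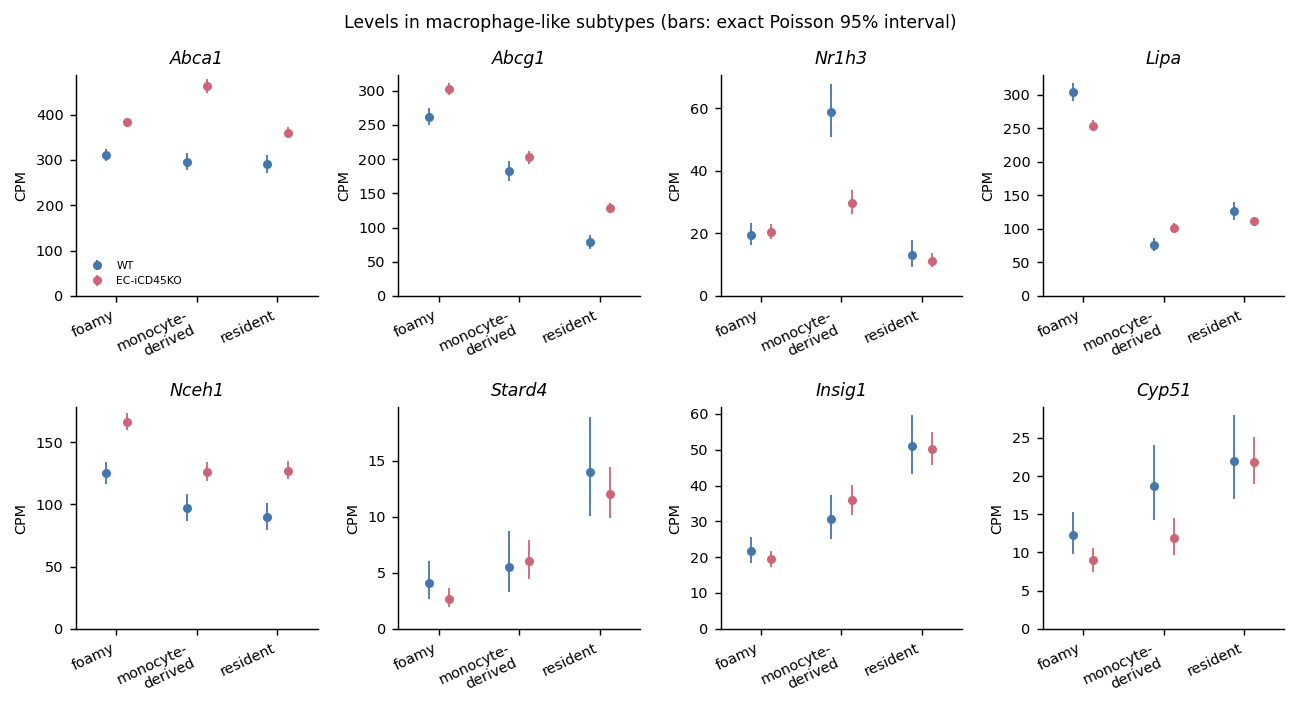
Level (y axis, CPM) of 8 genes in foamy, monocyte-derived and resident macrophage-like cells of the WT and EC-iCD45KO libraries; points are single libraries and bars exact Poisson 95% intervals. Abcg1 and Lipa stand highest in foamy cells, Insig1, Stard4 and Cyp51 in resident cells, and Nr1h3 in monocyte-derived cells (58.8 and 29.7 CPM).

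Other genes of lipid handling were counted beside the set from 4 lists. Over all genes that passed, 5.66% were called higher and 7.29% lower in EC-like, 5.57% and 8.15% in SMC-like, 7.78% and 13.6% in fibroblast-like and 2.26% and 4.19% in macrophage-like cells, and counts on lists this short are not read against these shares. Of 12 genes of fatty acid synthesis, 11 passed the filter in EC-like cells with 1 called higher, 12 in SMC-like cells with 1 higher and 1 lower, 12 in fibroblast-like cells with 1 higher and 2 lower, and 9 in macrophage-like cells with 1 higher. Scd1, a stearoyl-CoA desaturase, was lower in EC-iCD45KO in SMC-like (72.7 and 46.6 CPM; -0.64, -0.80 to -0.48) and fibroblast-like cells (82.8 and 51 CPM; -0.70, -0.89 to -0.51). Scd2, its paralog, was higher in macrophage-like cells (17.7 and 30.9 CPM; 0.80, 0.60 to 1.01). Elovl5, a fatty acid elongase, was lower in fibroblast-like cells (-0.64, -0.91 to -0.37). Of 8 lipoprotein and scavenger receptors, 5 passed in EC-like cells and 2 were called higher: Lrp1, a receptor of remnant particles (39.2 and 79.3 CPM; 1.02, 0.83 to 1.20), and Msr1, a macrophage scavenger receptor (9.84 and 24.4 CPM; 1.31, 0.95 to 1.68). Msr1 was at 63.4 and 89.6 CPM in macrophage-like cells, and the macrophage markers in EC-like cells differed in the same direction. Lrp1 was also called higher in fibroblast-like cells (261 and 471 CPM). Of 11 sterol carriers none was called in EC-like, SMC-like or macrophage-like cells and 1, Gramd1a, was lower in fibroblast-like cells (33.2 and 21.3 CPM). Of 10 oxysterol enzymes and LXR partners or targets, all passed in EC-like, SMC-like and fibroblast-like cells, with 1, 2 and 3 called higher and none lower, and of the 9 that passed in macrophage-like cells none was called. Cyp7b1, an oxysterol hydroxylase, was 23.8 and 69.5 CPM in fibroblast-like cells (1.55, 1.31 to 1.80), Nr1d1, a nuclear receptor of the clock, 9.37 and 18.6 CPM in EC-like cells (0.99, 0.61 to 1.38), and Ch25h, which makes 25-hydroxycholesterol, 3.84 and 8.69 CPM in SMC-like cells (1.18, 0.62 to 1.77).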

How the data were processed

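The data are 2 single-cell RNA libraries from mouse aorta, 1 per group, whose cells were enriched with beads against CD31, an endothelial surface protein. The deposited matrices hold whole-number UMI counts per gene and barcode, made by the authors with Cell Ranger 7.1.0 on mm10, per the submitters' processing notes. The kit's read end, the use of strand and the counting of introns are not given in the sources used here. Fdft1, Hmgcs1, Lss, Cyp51, Srebf1 and Npc1 overlap a gene on the other strand in GENCODE M21, and Tm7sf2 and Nr1h3 overlap 1 on the same strand, so their counts are less certain.

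The cell filter asked for 300 genes or more and no more than 10% mitochondrial UMIs (39503 and 28960 barcodes). Scrublet's own threshold marked 5 and 0 cells and had not worked, so in each library the top 10% of scores were removed. Both libraries were clustered together in scanpy 1.11.5 (2000 variable genes, 30 components, 20 neighbours, Leiden resolution 1) without the 34 genes. A class needed a mean log2 marker excess of 1 over the median cluster, a lead of 0.75, 3 detected markers and 50 cells, and a subtype an excess of 0.5. These thresholds, a rule that leading immunoglobulin genes count for plasma cells, and the naming of subtypes from 3 macrophage and 3 EC lists in place of re-clustering were set after the data were seen. Lists of inflammatory, interferon and antigen-presenting macrophage markers were not used. A macrophage-like cluster of shallow cells (697 WT and 3681 EC-iCD45KO) has no subtype, and 6459 and 786 cells have no class.

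UMI sums of a class in a library were scaled to a total of 1000000 UMIs (CPM). Levels carry exact Poisson intervals and ratios exact conditional binomial intervals. The intervals were tested on counts simulated under the model they assume, with no spread between cells or animals. That checks their computation alone. All 34 genes are described, folds are given from a mean of 5 CPM, and other lipid genes are named where called in 1 of 4 classes, at most 3 per list by mean level. The members and lists were chosen with earlier results of these data known. Of 32285 identifiers 32235 matched GENCODE M21. No deposited sample column was left unused.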

Additional observations from a re-analysis of the deposited data

Results flagged for a closer look

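A mean of 5 CPM or more in 2 or more of the 4 main classes was reached by 29 of the 34 genes. For 6 of these 29, the ratio between the libraries lay above 0 in 1 such class and below 0 in another, with intervals that excluded 0 on both sides. That is 20.7% of them, against 13.1% of the 11117 genes of all kinds that reached this level. Sqle would join them without the filter, but of the 4 classes it reached 5 CPM in SMC-like cells alone. Whether the classes differ was not tested, since each ratio rests on 1 library per group. Fdps had a log2 ratio of 0.63 in SMC-like and -0.42 in macrophage-like cells. Msmo1 had 0.53 in SMC-like and -0.48 in fibroblast-like cells. Lipa had 0.35 in fibroblast-like and -0.23 in macrophage-like cells, though 0.41 (0.21 to 0.62) in the monocyte-derived subtype, and Npc2 0.26 in fibroblast-like and -0.10 in SMC-like cells. Abcg1 had 0.25 in EC-like and -0.34 in fibroblast-like cells. Mylip had 0.20 in EC-like and -0.34 in fibroblast-like cells.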

How the results depend on the processing

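Under the cell filters, doublet handling, finer clusters and scalings listed beforehand, all 8 list ratios kept their direction except synthesis in EC-like cells, whose main ratio of -0.01 had no direction. The values outside their main interval were as follows, and the cause was not tested. Synthesis in EC-like cells was -0.12 with the mean of single-cell CPM, -0.15 in cells without a macrophage-marker UMI, and -0.20 and 0.35 in the deeper capillary and the venous cluster alone. Synthesis in SMC-like cells was 0.21 with TMM scaling, 0.030 in the shallower cluster and -0.18 (-0.58 to 0.20) in cells without a macrophage-marker UMI. Synthesis in fibroblast-like cells was -0.24 with the looser filter, -0.29 in the Sfrp4 cluster and -0.45 without macrophage-marker UMIs. Efflux in EC-like cells was 0.44 with the mean of single-cell CPM, 0.20 with equal cluster weights, 0.40 without macrophage-marker UMIs, 0.43 in the shallower capillary and 0.20 in the arterial cluster, and -0.10 (-0.23 to 0.03) in the venous cluster. Efflux in macrophage-like cells was 0.31 with TMM scaling, 0.19 with the mean of single-cell CPM and 0.30 with equal cluster weights. Efflux in foamy over resident cells was 0.44 in WT and 0.29 in EC-iCD45KO without doublet removal, 0.65 and 0.52 with finer clusters, and 0.71 and 0.50 with TMM scaling, which moved all genes of that comparison by 0.17 and 0.10. It had no value under the stricter filter, where no cluster was named resident, nor with equal cluster weights, since each subtype is 1 cluster.

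Among single genes, 5 called ratios changed sign in cells without a macrophage-marker UMI, at few counts: Nsdhl in EC-like (-0.93), Fdps (-0.041), Sqle (-0.46) and Nceh1 (-0.63) in SMC-like, and Stard4 in fibroblast-like cells (0.61). All 5 intervals there held 0. This subset, the single clusters and the macrophage-like cells without the unnamed cluster were added after the data were seen. Fewer than 1 in 10 of the UMIs of a class remained in it for the EC-iCD45KO library, which limits these values. No paired analysis was possible because only 1 library stood in each group.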
